A study of Mus musculus with 6 samples.

Results

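The CCAAT/enhancer-binding protein (C/EBP) genes Cebpa, Cebpb, Cebpd, Cebpg, Cebpz and Ddit3 were described in RNA from alveolar macrophages of the mouse, phagocytes that live in the airspaces of the lung. They are the 6 rows, of 10539 protein-coding genes in the deposited table, whose gene name equals 1 of those symbols, a rule by name that sets no threshold on a measured value, although the family was picked with earlier results of these data known. The cells came from lungs of C57BL/6 mice and are labelled as overexpressing C/EBPβ in both groups. Group CEBPβ (3 libraries) holds such cells, and group CEBPβ-A (3 libraries) holds such cells after treatment with an adenovirus (Ad) carrying A20, the ubiquitin-editing enzyme encoded by Tnfaip3 that restrains NF-κB signalling. The comparison asks how A20 delivery changes transcripts in these cells. Which virus the CEBPβ cells received, how C/EBPβ was overexpressed, the age of the animals and whether replicates are separate animals or cultures are not stated in the labels. A p-value here thus reflects how far these 6 libraries scatter, and that scatter may be only technical. Cells without C/EBPβ overexpression were not analysed here, so the size of the overexpression cannot be read from these levels.

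C/EBP proteins are transcription factors with a basic region that contacts DNA and a leucine zipper through which they pair, a combination called bZIP. In myeloid cells C/EBPα drives commitment to the granulocyte and monocyte lineage, and C/EBPβ controls macrophage activation and is needed for normal alveolar macrophages. C/EBPδ is induced by inflammatory signals. C/EBPγ lacks an activation domain and pairs with C/EBPβ and ATF4, and CHOP, the product of Ddit3, is a partner induced by endoplasmic reticulum stress that alters the DNA sites its dimers bind. Cebpz carries the family name but encodes a nucleolar protein of the NOC1 type, known from yeast for work in ribosome assembly, and has no bZIP domain. One intronless Cebpb transcript gives long activating and short inhibitory proteins from different start codons, so transcript levels carry no information on the balance of these forms.

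Upstream sequence is shown for the 4 members found in the RefSeq promoter table (build GRCm38.p6), as the 250 bases before the annotated start, 5′ to 3′ on the gene's strand. These 4 span the range from the most abundant member to 1 of the scarce ones, and the letters differ in which core promoter motifs they hold. Capitals mark TATAAA (the TATA box), CCAAT (the box after which the family is named), TGACG (a core of the cyclic AMP response element), TTGCNNAA (a C/EBP site) and TGATGNAA (a composite C/EBP and ATF site), each searched on both strands. The windows are chr2:167688665-167688914 on the plus strand for Cebpb, chr7:35119043-35119292 on the plus strand for Cebpa, chr7:35056567-35056816 on the minus strand for Cebpg and chr10:127290543-127290792 on the plus strand for Ddit3. The starts used are those of RefSeq. For Cebpg (35056566) and Ddit3 (127290793) they lie inside the gene spans given below, so the last bases of these windows do too.
Cebpb: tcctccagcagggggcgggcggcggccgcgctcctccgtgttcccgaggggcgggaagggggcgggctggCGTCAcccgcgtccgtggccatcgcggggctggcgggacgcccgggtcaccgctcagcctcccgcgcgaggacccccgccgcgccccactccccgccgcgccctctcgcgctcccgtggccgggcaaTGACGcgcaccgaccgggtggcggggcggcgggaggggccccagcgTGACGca
Cebpa: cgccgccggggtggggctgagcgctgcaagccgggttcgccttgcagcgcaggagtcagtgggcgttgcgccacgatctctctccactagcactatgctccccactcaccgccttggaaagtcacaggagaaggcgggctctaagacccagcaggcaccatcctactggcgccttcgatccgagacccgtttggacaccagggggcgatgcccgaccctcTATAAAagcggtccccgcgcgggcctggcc
Cebpg: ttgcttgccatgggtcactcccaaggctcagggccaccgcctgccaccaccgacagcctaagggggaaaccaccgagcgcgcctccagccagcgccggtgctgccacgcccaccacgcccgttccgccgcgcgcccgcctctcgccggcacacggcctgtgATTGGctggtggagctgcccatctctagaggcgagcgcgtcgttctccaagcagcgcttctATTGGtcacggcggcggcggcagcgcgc
Ddit3: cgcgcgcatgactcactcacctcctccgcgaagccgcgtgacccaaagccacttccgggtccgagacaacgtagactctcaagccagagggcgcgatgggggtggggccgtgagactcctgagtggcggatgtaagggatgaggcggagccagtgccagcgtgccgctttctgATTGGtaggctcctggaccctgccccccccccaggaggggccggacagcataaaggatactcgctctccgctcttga
The Cebpb window held 3 matches of TGACG, which begin 180, 53 and 7 bases before the start, the first of them on the other strand as CGTCA, and none of the other 4 capitalised motifs. TGACG occurs in 17.8% of all 32851 windows of this length. Cebpa held 1 TATAAA, beginning 30 bases before the start, a motif found in 12.4% of windows. CCAAT was matched, on the other strand as ATTGG, at 89 and 28 bases before the Cebpg start and at 77 bases before the Ddit3 start, and it occurs in 33.8% of windows. TTGCNNAA and TGATGNAA, present in 9.56% and 3.45% of windows, were in none of the 4. GGGCGG, the GC box, which is not capitalised here, occurred 5 times in the Cebpb window, with 1 pair overlapping, and in none of the other 3, against 32.7% of all windows with at least 1. The GC content was 81.6% for Cebpb, 66.4% for Cebpa, 70.8% for Cebpg and 64.8% for Ddit3, against a median of 52.4% over all windows. A match is only a run of letters, and nothing was measured here on the binding of any factor.

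The libraries carried the transcripts of the labelled cell type. All 14 alveolar macrophage markers were listed, led by Lyz2 at 19554 to 29717 FPKM (fragments scaled to gene length and to the mapped total of the library), with Chil3, Cd68 and Ear2 next. Of markers of other cells, 6 of 13 for neutrophils, 5 of 14 for alveolar epithelium, 1 of 7 for endothelium and fibroblasts and none of those for T or NK, B, eosinophil or mast cells were listed, and the others were not analysed here. Depth is unknown, since FPKM carries no counts, so no counting interval could be given. CEBPβ-A replicate 3 stood apart on the first principal component of all tested genes, at 25.7 against −11.7 to −0.095 for the other 5 libraries. Tnfaip3 had 8.76, 17.7 and 19.2 FPKM in CEBPβ replicates 1, 2 and 3 and 7.94, 15.5 and 7.32 in those of CEBPβ-A. Transcripts mapped to Tnfaip3 were thus not higher in the libraries labelled CEBPβ-A, and each direction below is between libraries as labelled. These values count reads mapped to the mouse gene, and whether the delivered A20 sequence maps there is not known here.

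Cebpb was by far the most abundant of the 6 transcripts and did not differ detectably between the groups. Its levels were 420, 368 and 500 FPKM in CEBPβ replicates 1, 2 and 3 and 363, 378 and 492 FPKM in those of CEBPβ-A. Replicate 3 was the highest in each group and the groups overlapped over nearly their whole range. Cebpb (ENSMUSG00000056501.3, GRCm38 chromosome 2, 167688915 to 167690418, plus strand, 1 exon of 1504 bases) ranked 51st to 83rd among the 10539 listed genes, at or above the 99.2nd percentile in each library. The mean was 411 ± 70.5 FPKM in CEBPβ-A and 429 ± 66.6 in CEBPβ (SD, n = 3 each). The log2 fold change, CEBPβ-A minus CEBPβ on the log2(FPKM + 1) scale, was −0.065 with an SE of 0.15 (limma adjusted p = 0.888 over 9617 tested genes; exact two-sided permutation p = 0.7, where the smallest possible is 0.1). Its 95% interval ran from −0.42 to 0.29, so the data leave room for a level between 0.749 and 1.22 times that of CEBPβ on this scale. FPKM at this gene sums whatever reads mapped there, and transcripts of the cell's own gene cannot be told apart from those of a mouse coding sequence delivered to it.

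Cebpa, the lineage factor, was the second most abundant member and stood well below Cebpb. CEBPβ replicates 1, 2 and 3 had 104, 92.7 and 97.9 FPKM, and those of CEBPβ-A had 97.9, 106 and 121 FPKM. The highest library was CEBPβ-A replicate 3, the one that stood apart, while CEBPβ-A replicate 1 lay within the range of CEBPβ. Cebpa (ENSMUSG00000034957.10, chromosome 7, 35119293 to 35121928, plus strand, 1 exon block) lay at the 96.1st to 96.7th percentile of listed genes. The mean was 108 ± 11.5 FPKM against 98.3 ± 5.78 (SD, n = 3 each), the highest log2 fold change of the 6 members at 0.13 (SE 0.095, 95% interval −0.088 to 0.35, limma adjusted p = 0.629; exact permutation p = 0.2). The log2 fold change was 0.051 without CEBPβ-A replicate 3 (limma adjusted p = 0.957) and 0.20 without CEBPβ-A replicate 1 (adjusted p = 0.416). Cebpb exceeded Cebpa by 4.03, 3.97 and 5.11 times in CEBPβ replicates 1, 2 and 3 and by 3.70, 3.58 and 4.08 times in those of CEBPβ-A. This ratio is taken within a library and does not depend on the scaling between libraries, and its ranges in the 2 groups overlapped.

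**Figure D1:**
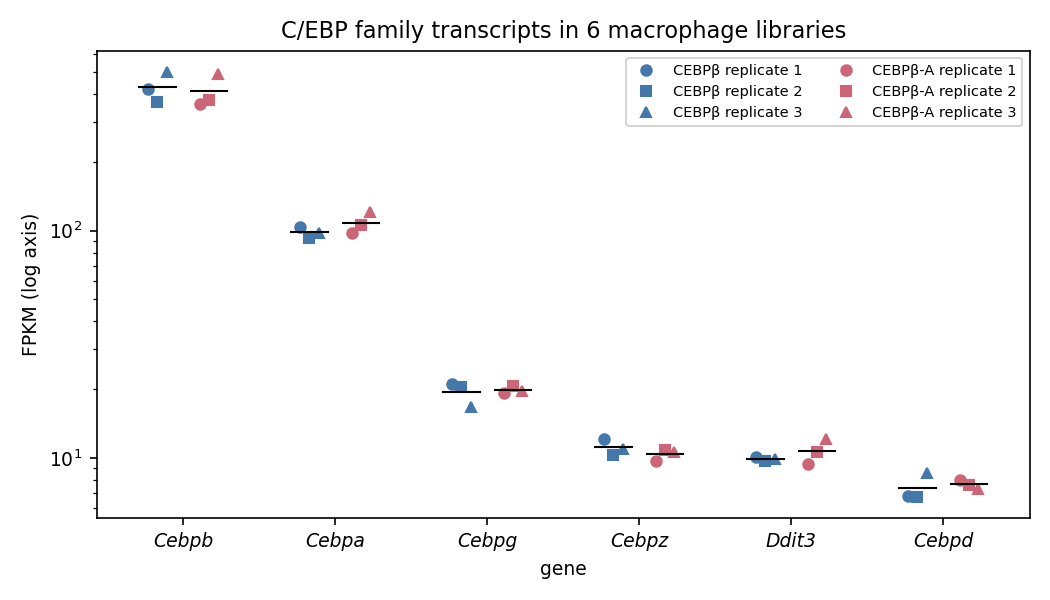
FPKM (log axis) of the 6 C/EBP family genes in each library, with CEBPβ in blue, CEBPβ-A in red, a marker shape per replicate number and black bars for the group means (n = 3 each). Cebpb lies at 363 to 500 FPKM, Cebpa at 92.7 to 121 and the other 4 at 6.75 to 21.2, and for each gene the groups overlap.

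The remaining bZIP members, the partner Cebpg and the inducible Cebpd, were expressed at moderate levels. Cebpg (ENSMUSG00000056216.9, chromosome 7, 35046422 to 35056573, minus strand, 3 exon blocks) lies 62719 bases from Cebpa on the same chromosome and had 21.2, 20.6 and 16.7 FPKM in CEBPβ replicates 1, 2 and 3 and 19.3, 20.7 and 19.8 FPKM in those of CEBPβ-A. The lowest and the highest libraries were both CEBPβ, and the 3 of CEBPβ-A lay between them. The mean of Cebpg was 19.9 ± 0.723 FPKM in CEBPβ-A and 19.5 ± 2.46 in CEBPβ, a log2 fold change of 0.037 (SE 0.10, 95% interval −0.20 to 0.27, limma adjusted p = 0.907; exact permutation p = 0.9). Cebpd (ENSMUSG00000071637.5, chromosome 16, 15887286 to 15891031, plus strand, 1 exon block) had 6.82, 6.75 and 8.61 FPKM in CEBPβ and 8.01, 7.61 and 7.30 FPKM in CEBPβ-A. It was the lowest member in each of the 6 libraries, at the 50.6th to 58.3rd percentile, near the median listed gene. Here too the 3 CEBPβ-A libraries lay within the range of CEBPβ (7.64 ± 0.358 against 7.39 ± 1.05 FPKM, SD, n = 3 each; log2 fold change 0.048, SE 0.11, 95% interval −0.20 to 0.30, limma adjusted p = 0.885; exact permutation p = 0.7).

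Ddit3, the stress-induced inhibitory partner, and Cebpz, the nucleolar protein, were at like levels. Ddit3 (ENSMUSG00000025408.15, chromosome 10, 127290774 to 127296288, plus strand, 4 exon blocks) had 10.1, 9.71 and 9.84 FPKM in CEBPβ replicates 1, 2 and 3 and 9.40, 10.6 and 12.1 FPKM in those of CEBPβ-A. CEBPβ-A held both its lowest and its highest library, the highest again being replicate 3. The mean of Ddit3 was 10.7 ± 1.34 FPKM against 9.87 ± 0.177 (SD, n = 3 each; log2 fold change 0.10, SE 0.10, 95% interval −0.13 to 0.33, limma adjusted p = 0.713; exact permutation p = 0.4). The log2 fold change of Ddit3 was 0.016 without CEBPβ-A replicate 3 (limma adjusted p = 0.993) and 0.18 without CEBPβ-A replicate 1 (adjusted p = 0.434). Cebpz (ENSMUSG00000024081.8, chromosome 17, 78919006 to 78937070, minus strand, 16 exon blocks in GENCODE M21) had 12.1, 10.3 and 10.9 FPKM in CEBPβ and 9.72, 10.9 and 10.6 FPKM in CEBPβ-A. Its lowest library was CEBPβ-A replicate 1 and its highest CEBPβ replicate 1 (10.4 ± 0.593 against 11.1 ± 0.915 FPKM, SD, n = 3 each; log2 fold change −0.089, SE 0.090, 95% interval −0.30 to 0.12, limma adjusted p = 0.714; exact permutation p = 0.4).

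No member passed the threshold of an adjusted p of 0.05 in limma's test (0 of 6, and 0 of 6 at an unadjusted p under 0.05), where 0.052% of the 9617 tested genes were called (0.0208% upward and 0.0312% downward) and 8.18% had an unadjusted p under 0.05. The groups did not overlap for 0 of 6 members, against 16.8% of tested genes (7.89% higher and 8.86% lower in CEBPβ-A). The estimates were positive for Cebpa, Cebpd, Cebpg and Ddit3 and negative for Cebpb and Cebpz, with a median of 0.042 over the 6 and −0.013 over all tested genes. In size, the member estimates were larger than those of 59.4% of tested genes for Cebpa, 47.0% for Ddit3, 42.9% for Cebpz, 32.7% for Cebpb, 24.7% for Cebpd and 19.0% for Cebpg, and 4 of 6 lay between the 25th and the 75th percentile of all tested genes by log2 fold change. All 6 intervals include 0, and they reach 0.35 upward and −0.42 downward at most. Changes within those bounds could not be told from no change with 3 libraries per group.

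**Figure D2:**
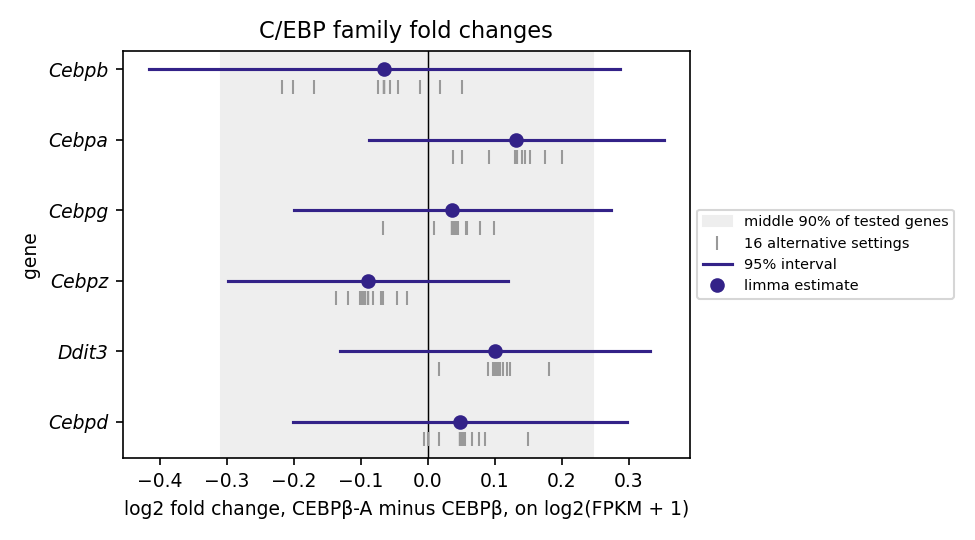
Log2 fold change, CEBPβ-A minus CEBPβ on log2(FPKM + 1), of each C/EBP family gene with limma's 95% interval (dot and line), the values under 16 alternative settings (ticks) and the middle 90% of tested genes (grey, −0.31 to 0.25). Each interval includes 0, and the widest belongs to Cebpb (−0.42 to 0.29).

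FPKM is scaled by gene length, so levels of different members may be set side by side. The order Cebpb, Cebpa, Cebpg held in all 6 libraries, and Cebpd came last in all 6. Cebpz lay above Ddit3 in 5 of 6 libraries and below it in CEBPβ-A replicate 3, with a ratio between 0.876 and 1.20, so these neighbours did not differ beyond their spread. The 3 abundant members were each separated from the next over all libraries, with Cebpb at 3.58 to 5.11 times Cebpa, Cebpa at 4.50 to 6.11 times Cebpg and Cebpg at 1.53 to 1.996 times Cebpz. Cebpb made up 70.9% to 77.6% of the summed FPKM of the 6 members and Cebpa 15.2% to 19.8%, leaving at most 4.06% for any other member in a library. That sum was 574, 508 and 644 FPKM in CEBPβ replicates 1, 2 and 3 and 507, 534 and 662 FPKM in those of CEBPβ-A. The groups overlapped, and replicate 3 was highest in each. Of the 15 ratios between members, the groups did not overlap for Cebpa over Cebpz (8.60, 8.98 and 8.97 in CEBPβ; 10.1, 9.73 and 11.4 in CEBPβ-A) and for Cebpz over Ddit3 (1.20, 1.06 and 1.11; 1.03, 1.02 and 0.876). These were picked after all 15 had been seen and are given without a test. The 15 ratios are built from the same 6 genes, and by level the groups did not overlap for 16.8% of all tested genes.

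The spread between libraries differed among members. Over the 6 libraries the coefficient of variation was 14.8% for Cebpb, 9.47% for Cebpa, 9.52% for Cebpd, 8.30% for Cebpg, 7.43% for Cebpz and 9.39% for Ddit3, and the highest library exceeded the lowest by 1.38 times for Cebpb and by 1.25 to 1.30 times for the other 5. Ddit3 varied little within CEBPβ (1.80%) and more within CEBPβ-A (12.5%), whereas Cebpg did the reverse (12.6% and 3.63%), and neither difference in spread was tested. As a measure of any shift that depends on gene length, among the 500 tested genes nearest in exon length to each member the median log2 fold change was 0.12 for Cebpb, 0.10 for Ddit3, 0.056 for Cebpa, 0.014 for Cebpd, −0.025 for Cebpz and −0.046 for Cebpg. The part of length in the members' values was not tested.

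Each of the 6 members shares exon bases with another annotated gene, and 4 do so with a listed gene on the opposite strand (GENCODE M21, GRCm38). The kit makes stranded libraries, per the labels' protocols, but no source used here says whether the counting used strand, so reads of such pairs may not have been told apart. Cebpb shares 312 bases, 20.7% of its exon, with Tmem189, which encodes a desaturase of plasmalogen synthesis. Tmem189 had 50.2, 39.1 and 57.1 FPKM in CEBPβ replicates 1, 2 and 3 and 41.0, 43.9 and 66.0 FPKM in those of CEBPβ-A. It was thus highest in replicate 3 of each group, as Cebpb was, and the FPKM of Cebpb was 7.45 to 9.40 times that of Tmem189 in every library. Its profile was the 84th nearest to Cebpb among 9616 genes, by the root-mean-square (RMS) difference of log2 profiles centred on their own means over the 6 libraries (0.098). Cebpd shares 562 bases, 15.0% of its exon bases, with the DNA repair scaffold Spidr, which had 5.18 to 6.28 FPKM and ranked 3826th by the same measure.

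Cebpz shares 171 exon bases, 3.67%, with Cebpzos, a small gene on the other strand that had 4.25, 5.26 and 4.02 FPKM in CEBPβ and 5.75, 5.90 and 5.51 FPKM in CEBPβ-A. The groups did not overlap for Cebpzos, as for 7.89% of tested genes in this direction, but its difference did not pass (log2 fold change 0.29, SE 0.11, limma adjusted p = 0.588). Cebpz itself had a slightly negative estimate, and the profile of Cebpzos was the 8263rd nearest to Cebpz among 9616 genes. Ddit3 shares 68 bases, 3.97%, with Mars, the methionyl-tRNA synthetase, which had 10.8 to 12.4 FPKM. By the same measure the profile of Mars was the 520th nearest to Ddit3 among 9616 genes (RMS difference 0.072). Ddit3 also shares 105 bases with another gene model of the same symbol and strand that was not analysed here. Of the 6 members, Cebpb and Cebpd share the largest parts of their exon bases.

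**Figure D3:**
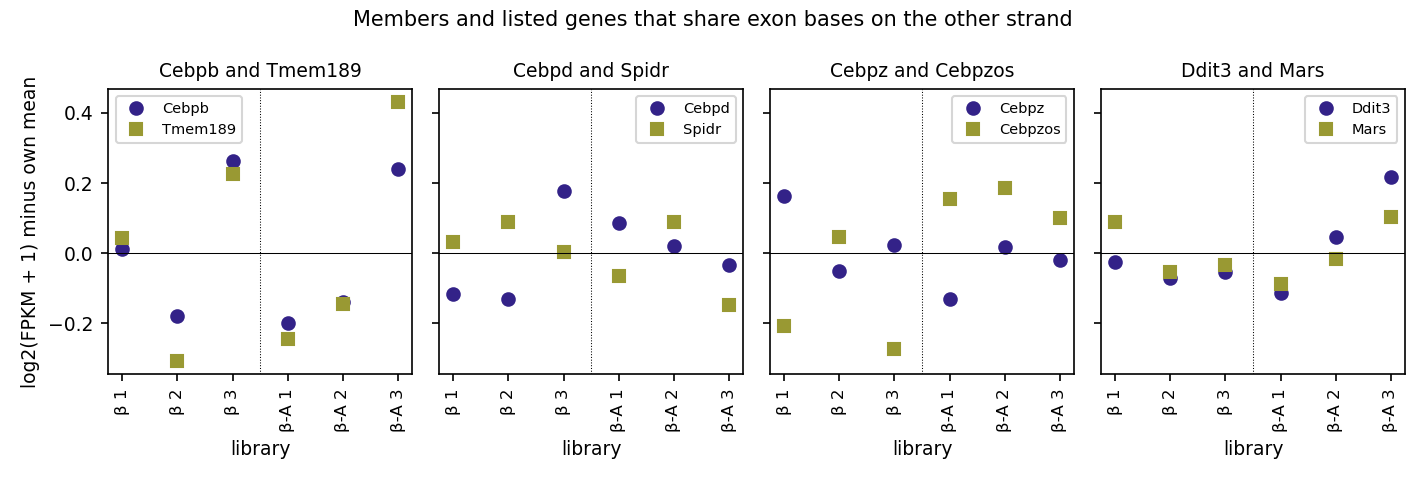
Log2(FPKM + 1) minus each gene's own mean over the 6 libraries (vertical axis) by library (β for CEBPβ, β-A for CEBPβ-A, with replicate number), for 4 members (dots) and the listed gene sharing exon bases on the other strand (squares). Cebpb and Tmem189 are both highest in replicate 3 of each group, while Cebpzos is higher in all 3 CEBPβ-A libraries and Cebpz is not.

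Genes with the most similar profile over the 6 libraries were named by the same RMS difference, as a description over 6 libraries that share their preparation. For Cebpb, whose own profile had an RMS of 0.19, these were Park7, the redox-sensitive protein DJ-1 (RMS difference 0.048), Ugt1a10, a glucuronosyltransferase that shares exons with its cluster and lies near 1 FPKM (0.048), and Slc3a2, the heavy chain of the CD98 amino acid transporter (0.055). Slc3a2 had 114, 103 and 127 FPKM in CEBPβ and 102, 103 and 126 in CEBPβ-A, with replicate 3 the highest in each. For Cebpa the nearest was Jund, an AP-1 subunit of the bZIP class (0.016), at 84.3, 76.8 and 81.1 FPKM in CEBPβ and 81.5, 85.7 and 98.9 in CEBPβ-A, followed by Stx4a and Fam129b. For Cebpd they were Acad9, Cnp and Arfrp1, for Cebpg Skp1a, Timm29 and Ero1lb, for Cebpz Btd, Bbs7 and Ano8, and for Ddit3 Srsf4, Fxr2 and Tubg1, with RMS differences between 0.016 and 0.034 for these 4 members. None of the 6 members was among the 3 nearest of another.

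Placed among bZIP factors, with which C/EBP proteins can pair or compete, Cebpb ranked first of 31 listed genes in each of the 6 libraries. Cebpa came in place 2 or 3, beside Atf4, the stress factor that pairs with C/EBPγ (mean 91.9 FPKM), Atf3 (90.9), the antioxidant factor Nfe2l2 (89.8) and Jund (84.7). Taken over all libraries, the ranges of these 4 overlapped that of Cebpa, while the range of Cebpb lay above those of all the others. Within each of the 6 libraries, Cebpa lay above Atf4 and Jund. It lay below Atf3 only in CEBPβ replicate 3 and below Nfe2l2 only in CEBPβ replicate 2. Cebpg (11th to 14th) lay among Fosl2, Fos, Nfil3 and Jun, and Ddit3 (15th to 17th) and Cebpd (18th or 19th) lay lower. Of the 24 tested genes of the list of other bZIP factors, 0 passed in limma's test in either direction (3 at an unadjusted p under 0.05, against 8.18% of all tested genes). The groups did not overlap for 1 upward and 3 downward, against 16.8% of all tested genes in either direction, and the median log2 fold change was −0.029 against −0.013 over all tested genes. Fos had 17.6, 18.8 and 17.9 FPKM in CEBPβ and 20.8, 23.6 and 23.5 in CEBPβ-A (log2 fold change 0.30, SE 0.080, limma adjusted p = 0.588). Maff had 3.15, 9.38 and 4.16 FPKM in CEBPβ and 9.39, 9.02 and 9.42 in CEBPβ-A, so 2 CEBPβ libraries were low and the groups overlapped (log2 fold change 0.76, SE 0.30, limma adjusted p = 0.588). Nfe2l1 and Fosl2 had estimates of −0.41 and −0.24 and did not pass.

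**Figure D4:**
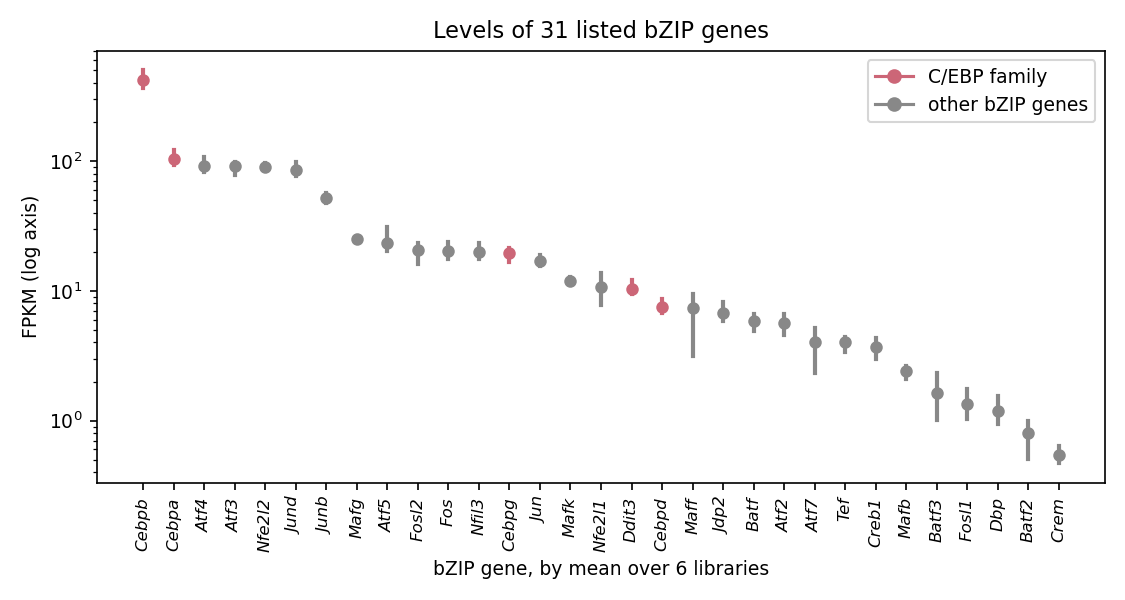
Mean FPKM over 6 libraries (dots, log axis) and the range from the lowest to the highest library (lines) of 31 listed bZIP genes, ordered by mean, with C/EBP family genes in red. Cebpb (363 to 500 FPKM) lies clear of the others, and Cebpa (92.7 to 121) overlaps Atf4, Atf3, Nfe2l2 and Jund.

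Proteins that act on C/EBP factors were also without a call. Of 30 tested regulators, 0 passed in limma's test (1 at an unadjusted p under 0.05, against 8.18% of all tested genes). Estimates were negative for 22 of them, and the median of the 30 was −0.12, against −0.013 over all tested genes. The part of exon length in this median was not tested, and the weight of CEBPβ-A replicate 3 in it is not reported here. The groups did not overlap for 0 upward and 4 downward, where 7.89% and 8.86% of all tested genes were so separated. Celf1, an RNA-binding protein known to promote the short form of C/EBPβ, had 13.7, 11.2 and 11.6 FPKM in CEBPβ and 10.5, 10.8 and 8.52 in CEBPβ-A, the lowest being CEBPβ-A replicate 3 (log2 fold change −0.27, SE 0.12, limma adjusted p = 0.588). Med23, the Mediator subunit that binds phosphorylated C/EBPβ, had an estimate of −0.18, and the kinase Rps6ka3 had −0.38, neither past the threshold. Trib1, the pseudokinase that guides C/EBPα to degradation, had 20.5, 19.8 and 20.6 FPKM in CEBPβ and 18.3, 19.1 and 18.8 in CEBPβ-A (log2 fold change −0.11, limma adjusted p = 0.5995), and was named for its role after its values were seen. The most abundant of the list, the chaperone Calr and the kinase Mapk3, had means of 331 and 207 FPKM with estimates of 0.061 and 0.12.

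The pathways around Ddit3 and Cebpg, the integrated stress and unfolded protein responses, gave 0 calls among 40 tested genes in limma's test. Over all tested genes 0.052% were called. Among the 40, 3 had an unadjusted p under 0.05 in limma's test, against 8.18% of all tested genes. With 15 positive and 25 negative estimates, the median was −0.033, against −0.013 over all tested genes. Atf4, listed among the bZIP factors too, had 91.9, 82.2 and 90.1 FPKM in CEBPβ and 90.4, 89.7 and 107 in CEBPβ-A, with overlap and the highest value in CEBPβ-A replicate 3. Slc7a11, the cystine transporter, stood at 34.0 ± 4.92 FPKM against 47.5 ± 9.34 (SD, n = 3 each; log2 fold change −0.46, limma adjusted p = 0.588). The stress sensor Atf6 had an estimate of −0.33, the mitochondrial enzyme Shmt2 0.26 and the asparagine synthetase Asns −0.38, none past the threshold. The chaperone Hsp90b1, the most abundant of the list, stood at 184 ± 8.22 FPKM in CEBPβ-A and 184 ± 11.7 in CEBPβ. No direction is shared by the named members.

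Genes upstream of the Cebp genes, such as NF-κB, PU.1 (Spi1) and the glucocorticoid receptor (Nr3c1), had 0 calls among 25 tested in limma's test. Over all tested genes 0.052% were called. An unadjusted p under 0.05 in limma's test was found for 4 of the 25, against 8.18% of all tested genes. Their median log2 fold change was −0.071, against −0.013 over all tested genes. Nr3c1 had an estimate of −0.50, Nfkb1 −0.21 and Irf8 0.21, each with an adjusted p of 0.588, and Spi1, at 195 ± 24.0 against 175 ± 8.68 FPKM, had 0.15. Of the list of ribosome assembly genes, chosen for the role of Cebpz, 0 of 35 tested passed in limma's test. At an unadjusted p under 0.05 there were 2, against 8.18% of all tested genes. Estimates were positive for 18 and negative for 17, with a median of 0.021. Npm1, nucleophosmin, had 92.6, 92.9 and 86.2 FPKM in CEBPβ and 108, 105 and 107 in CEBPβ-A. Its groups did not overlap, as for 7.89% of tested genes in this direction. It was not called (log2 fold change 0.24, SE 0.067, limma adjusted p = 0.588), and the nucleolar GTPase Gnl3 had an estimate of 0.22. The 3 subunits of NF-Y, the factor that binds CCAAT boxes, had estimates of 0.088 for Nfya, −0.047 for Nfyb and −0.058 for Nfyc, none past the threshold.

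Among myeloid genes linked to C/EBP factors, 38 of 49 were listed and 36 rows were tested, Itgam having 2 rows. In limma's test 0 passed, and 12 had an unadjusted p under 0.05, where 8.18% of all tested genes did. The groups did not overlap for 4 upward and 9 downward, where 7.89% and 8.86% of all tested genes were so separated, and the median of 0.006 lay beside −0.013 over all tested genes, with 18 estimates of each sign. The 4 genes with the smallest p had lower means in CEBPβ-A. The chemokine Cxcl2 had 14.6, 13.8 and 14.7 FPKM in CEBPβ and 9.26, 8.31 and 8.02 in CEBPβ-A (log2 fold change −0.69, SE 0.084, limma adjusted p = 0.0738), and the acute phase gene Saa3 had 3.50, 3.76 and 3.95 FPKM in CEBPβ and 1.94, 1.45 and 2.09 in CEBPβ-A (−0.75, SE 0.11, adjusted p = 0.195). The 3 libraries of a group did not overlap with the other 3 for either gene, nor for the chemokines Ccl3 (−0.52) and Cxcl1 (−0.72). In 1 of the 16 alternative settings, without CEBPβ-A replicate 3, Ccl3 passed barely (log2 fold change −0.62, limma adjusted p = 0.0499). There 9 of 9617 tested genes passed, and Cebpb and the other 5 members did not. No gene of this list passed in any other setting. The list was written with earlier results of these data known, several of its genes are also targets of NF-κB, and the medians and counts are a description only.

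**Figure D5:**
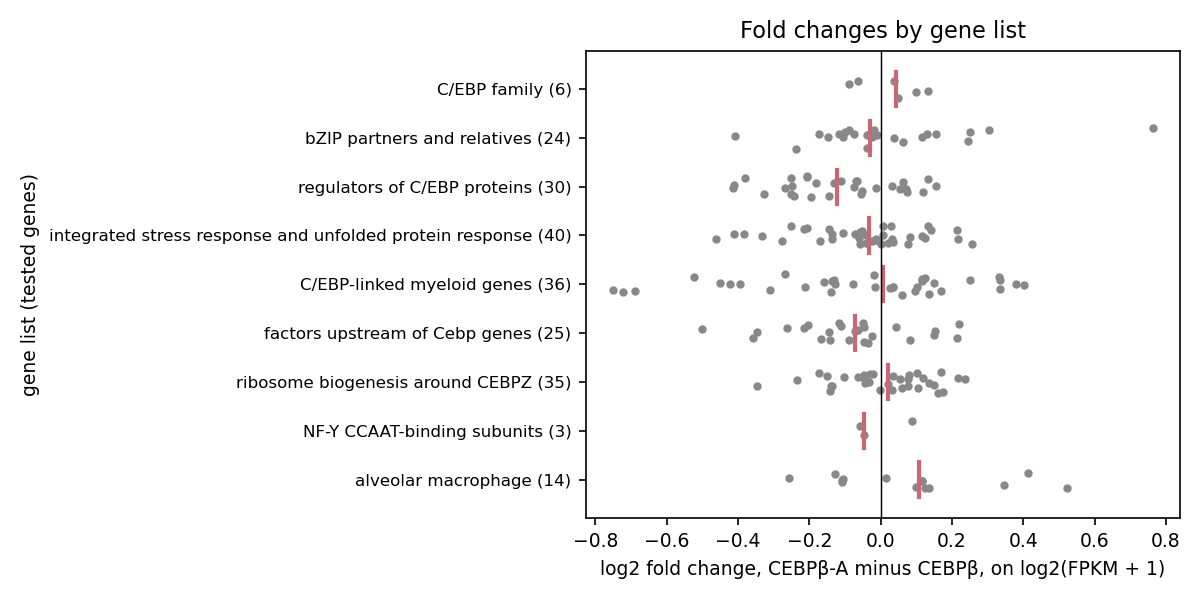
Log2 fold changes, CEBPβ-A minus CEBPβ on log2(FPKM + 1), of the tested genes of the C/EBP, related and alveolar macrophage lists (grey points, number of tested rows in brackets) and the median of each (red bars), without the lists of other cell types. No point passed the threshold, and the medians plotted lie between −0.12 for regulators of C/EBP proteins and 0.11 for alveolar macrophage markers.

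C/EBP genes are also expressed in neutrophils and lung epithelium, so markers of both were set beside the members. The 6 listed neutrophil markers summed to 354 to 385 FPKM in CEBPβ-A and 263 to 321 in CEBPβ, without overlap, and most of this was S100a8 (303, 296 and 286 FPKM in CEBPβ-A; 251, 249 and 199 in CEBPβ). Taken singly, the groups did not overlap for 1 of the 6, S100a8, where 7.89% of all tested genes were so separated in this direction. Of the 6, 5 had positive estimates, with a median log2 fold change of 0.15. They were 0.35 for S100a8, 0.21 for Mmp8, 0.38 for Ltf, 0.095 for Camp, 0.036 for Cxcr2 and −0.076 for Csf3r. Ltf had 1.64, 1.17 and 3.77 FPKM in CEBPβ-A and 1.67, 0.958 and 1.37 in CEBPβ, so CEBPβ-A replicate 3 alone stood above the rest. Mmp8 had 64.2, 64.8 and 50.8 FPKM in CEBPβ-A and 53.1, 55.4 and 46.1 in CEBPβ, with overlap. The 5 listed epithelial markers summed to 58.7 to 88.4 FPKM in CEBPβ-A and 55.4 to 66.8 in CEBPβ. Scgb1a1, of club cells, was highest in CEBPβ-A replicate 3 at 59.4 FPKM against 22.02 to 33.2 in the other 5 libraries, the same library in which Cebpa and Ddit3 were highest. The other epithelial markers did not move together there, since Krt8 was also highest in that library (1.54 against 0.326 to 0.660 FPKM) while Abca3 (20.4 against 23.9 to 26.1) and Ager (0.843 against 1.07 to 1.57) were lowest and Cdh1 lay within the range of the others. Krt8, with a mean FPKM under 1, was not tested, and none of the other markers passed in limma's test. Of the 14 alveolar macrophage markers 0 passed, and 4 had an unadjusted p under 0.05, against 8.18% of all tested genes. For 5 upward and 2 downward the groups did not overlap, where 7.89% and 8.86% of all tested genes were so separated. Estimates were positive for 9 and negative for 5, among them 0.52 for Car4, 0.35 for Ear2, 0.41 for Ear1 and −0.26 for Adgre1. The part of these markers' cells in the members' levels was not tested. In such bulk RNA, fewer cells of a type and less RNA per cell cannot be told apart.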

How the data were processed

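RNA sequencing of 6 libraries (3 CEBPβ, 3 CEBPβ-A) was analysed from 1 table of FPKM that the authors deposited, per the file headers. FPKM corrects fragment numbers for gene length and for the mapped total of a library. Libraries were stranded and made from total RNA, per the labels' protocols, and reads were placed on GRCm38, per the submitters' processing notes. Aligner, quantification program, annotation release and the rule for listing genes: not given in the sources used here. Depth is unknown. Among low genes with a single annotated transcript, FPKM times exon length fell into no whole-read steps (highest periodicity per library 0.167 to 0.186, where 1 would be perfect steps), and precision rests on 3 libraries per group.

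Genes whose FPKM averaged at least 1 (9617 of 10539, all 6 members among them) were tested on log2(FPKM + 1) with limma (version 3.58.1, R 4.3.3) with an intensity trend, CEBPβ-A minus CEBPβ, two-sided, with Benjamini-Hochberg adjustment over all tested genes and a threshold of 0.05. Intervals are limma's at 95%. The script was tested on simulated data. Members were also compared by an exact permutation test of mean log2(FPKM + 1). Exon overlaps come from GENCODE M21, whose span for Cebpz differs slightly from that in the file, and upstream sequences from RefSeq. Besides the members, Tnfaip3 and genes overlapping a member, the text names up to 4 genes per list by p and 2 by level (4 by level for markers) and the 3 nearest profiles per member, leaving out Gm-numbered symbols. Some genes the rule names are not reported here. Alternatives were pseudocounts, filters, scalings, limma's priors, the replicate number as a block and each library left out. The members and lists were chosen with earlier results of these data known.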

Additional observations from a re-analysis of the deposited data

How the results depend on the processing

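None of the 6 members passed the threshold under any of the 16 alternatives. Cebpa, Ddit3 and Cebpz kept their direction in all 16, but not their size. With each library left out in turn the log2 fold change ran from 0.051 to 0.20 for Cebpa (lowest without CEBPβ-A replicate 3, highest without CEBPβ-A replicate 1), from 0.016 to 0.18 for Ddit3 (the same libraries) and from −0.14 to −0.031 for Cebpz (without CEBPβ replicates 2 and 1). It ran from −0.20 to 0.051 for Cebpb, from −0.0060 to 0.15 for Cebpd and from −0.066 to 0.098 for Cebpg. The sign turned for Cebpb without CEBPβ replicate 3 (0.051) or CEBPβ-A replicate 1 (0.018), for Cebpd without CEBPβ replicate 2 (−0.0060) and for Cebpg without CEBPβ replicate 3 (−0.066). Quantile normalization moved Cebpb from −0.065 to −0.22 (adjusted p = 0.603), Cebpa from 0.13 to 0.038 and Cebpd from 0.048 to 0.086. The cause of these moves was not tested. The number of genes past the threshold, 5 of 9617, became 0 of 6114 at a mean FPKM of at least 5 (522 at an unadjusted p under 0.05 in limma), where fewer genes are tested, and 2 with quantile normalization. It ran from 1 to 9 with single libraries left out. With the replicate block it was 1, while 1285 genes had an unadjusted p under 0.05 in limma, against 787 in the main fit. With this block the Cebpb estimate stayed at −0.065 with an SE of 0.070 in place of 0.15 (limma adjusted p = 0.664). Same-numbered libraries of the groups had correlations of deviations of 0.099, 0.25 and 0.26, each library correlating best with its own number, a hint from the data since the labels name no shared animal or day. Median-of-ratios and upper-quartile scaling moved the median of all genes by under 0.02 (log2).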
